A study of Homo sapiens with 4 samples.

Results

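Tight junctions are the seals near the apical edge of neighbouring epithelial cells, and the transcripts examined here encode their main building blocks together with the adhesion molecule EPCAM. The genes were chosen by name for their place in the junction: the claudins CLDN1, CLDN3, CLDN4 and CLDN7, the MARVEL-domain proteins OCLN and MARVELD2, the junctional adhesion molecule F11R, the scaffolds TJP1 and TJP3, and EPCAM. They are 10 of the 20332 genes counted, and all 10 passed the filter on low counts that left 13744 genes for testing. RNA-seq was performed on 2 libraries of LN-35 cells and 2 libraries of LNCaP cells. LNCaP is a human prostate cancer line of luminal epithelial character that responds to androgen, and its genotype is labelled WT. LN-35, labelled LNCaP-35, is 1 subline derived from LNCaP by stepwise exposure to enzalutamide, a drug that blocks the androgen receptor, and its cells are labelled as resistance cells treated with the drug. The labels give both lines the same RPMI-1640 medium with serum, whereas the study's methods describe charcoal-stripped serum for the resistant cells. The sources do not state if the drug was still in the medium when RNA was taken. Nothing in the labels says that the libraries of a line came from separate cultures, so each p-value reflects library-to-library spread that could be purely technical.

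In a tight junction, claudins polymerize into the strands that close the space between cells and set which ions may pass. Occludin and tricellulin, the products of OCLN and MARVELD2, join these strands, with tricellulin concentrated at the corners where several cells meet. The ZO scaffolds, among them the products of TJP1 and TJP3, tie the strands to the actin cytoskeleton and recruit the junctional adhesion molecules. EPCAM lies along the lateral membrane of simple epithelia, where it binds claudin-7 and protects it from degradation.

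The library totals ran from 12225169 to 12892069 estimated counts in LN-35 and from 13598449 to 15333715 in LNCaP. Of these, 13.8% to 14.8% fell on mitochondrially encoded genes in LN-35 and 9.39% to 9.53% in LNCaP, a difference whose part in the results was not tested. Luminal epithelial markers summed to 4280 to 4288 CPM (counts scaled to 1000000 per library with TMM normalization) in LN-35 and 4159 to 4189 CPM in LNCaP, and 10 of the 11 were called between the lines. For these and the other marker lists, the share called over all tested genes was 71.8%, with 36.4% higher and 35.5% lower. The keratin KRT8 averaged 863 CPM in LN-35 and 440.4 CPM in LNCaP, while the androgen-driven KLK3 averaged 6.14 CPM in LN-35 and 504 CPM in LNCaP. Neuroendocrine markers summed to 306 to 323 CPM in LN-35 and 55.8 to 60.5 CPM in LNCaP, with all 5 tested members of the 7 listed higher in LN-35 and INSM1 at 0 in all libraries. Basal markers were at 0 in LN-35 and reached at most 0.127 CPM in LNCaP. Of 8 fibroblast markers 4 were tested, of which 3 were higher in LN-35 and none lower. The collagen gene COL1A1, which was not called, carried most of their summed level of 44.99 to 47.3 CPM in LN-35 and 37.1 to 45.5 CPM in LNCaP, at 33.9 CPM in LN-35 and 40.0 CPM in LNCaP on average. DCN, the gene of the matrix proteoglycan decorin, had 78 and 119 counts in LN-35 and none in LNCaP, at least 79.6-fold higher against a floor of 3 counts over the LNCaP libraries. LUM had 24 and 30 counts in LN-35 against 10 and 5 counts in LNCaP, and COL3A1 12 and 28 counts in LN-35 against 5 and 6 counts in LNCaP. The log2 fold change of COL3A1 was 2.11, and it lost its call without LN-35 replicate 2 (1.41) and without LNCaP replicate 1 (1.89). The untested markers COL1A2, PDGFRA, PDGFRB and THY1 had at most 5 counts in any library, and the part of these markers in the junction results was not tested. Leukocyte markers summed to 9.75 to 13.1 CPM in LN-35 and 10.3 to 12.5 CPM in LNCaP, and endothelial markers to 0.416 to 0.805 CPM in LN-35 and 5.65 to 6.74 CPM in LNCaP, with CDH5, KDR and TEK at 0. Each sum was mostly a single gene. CD68, which was not called, averaged 9.35 CPM in LN-35 and 10.7 CPM in LNCaP. VWF, called lower, averaged 0.529 CPM in LN-35 and 6.09 CPM in LNCaP. These are bulk libraries, so fewer cells with a transcript and less of it per cell cannot be told apart.

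Most of the junction transcripts were lower in the resistant subline. Their summed level was 725 and 721 CPM in the LN-35 libraries, against 1224 and 1266 CPM in the LNCaP libraries. In edgeR's quasi-likelihood test, with a call at a Benjamini-Hochberg adjusted p under 0.05 over all tested genes, 8 of the 10 members fell (OCLN, F11R, CLDN4, TJP1, EPCAM, CLDN7, MARVELD2 and CLDN3) and 2 rose (CLDN1 and TJP3). The background is high, because 71.8% of all tested genes were called in either direction, 36.4% as higher and 35.5% as lower. The members' median log2 fold change, LN-35 over LNCaP, was -0.50, beside -0.01 over all 13744 tested genes. In no member did the CPM values of LN-35 and LNCaP overlap, which also held for 85.5% of all tested genes.

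**Figure D1:**
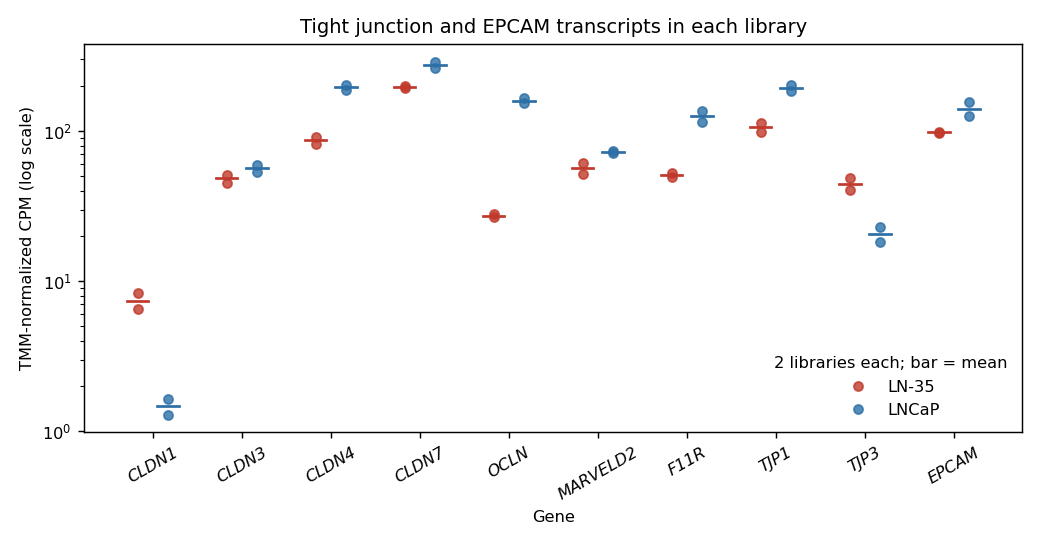
TMM-normalized CPM of each gene (log axis) in the 2 LN-35 libraries (red, left) and the 2 LNCaP libraries (blue, right), with bars at the means. OCLN shows the widest gap downwards, at 27.9 and 26.8 CPM in LN-35 against 154 and 166 CPM in LNCaP, and CLDN1 and TJP3 are the genes that lie higher in LN-35.

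CLDN1 (ENSG00000163347, chr3:190305701-190322475, minus strand, GRCh38) encodes claudin-1, a barrier-forming claudin that basal and stratified epithelia make in quantity. It had 78 and 103 counts in the LN-35 libraries, against 26 and 18 counts in the LNCaP libraries, or 6.50 and 8.29 CPM against 1.65 and 1.29 CPM. Both LN-35 libraries were well above both LNCaP libraries, yet the gene remained the least abundant member in each line. The difference was 4.98-fold, a log2 fold change of 2.32 with an SE of 0.33 (95% interval 1.64 to 2.99) and an edgeR adjusted p of 1.09e-06. Within the repeat numbers of the labels the log2 ratio was 1.89 for repeat 1 and 2.55 for repeat 2. With so few counts its interval was the widest of the members.

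CLDN3 and CLDN4 are neighbours on chromosome 7 whose annotated gene starts lie 29.3 kb apart on opposite strands. Both proteins are typical of glandular epithelia. CLDN3 (ENSG00000165215, chr7:73768997-73770270, minus strand) had 51.2 and 45.4 CPM in LN-35, against 59.8 and 53.3 CPM in LNCaP. The gap between the lines was little wider than the gap within each, and the log2 fold change of -0.23 ± 0.10 (SE) had an interval of -0.43 to -0.03 and an edgeR adjusted p of 0.0396. That call was lost with DESeq2 (log2 fold change -0.21, adjusted p = 0.174), without LN-35 replicate 2 (-0.14, adjusted p = 0.336) and without LNCaP replicate 1 (-0.15, adjusted p = 0.238). Over its alternatives the adjusted p ranged from 0.0077 to 0.336, so CLDN3 is the member whose difference is least secure.

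CLDN4 (ENSG00000189143, chr7:73799542-73832693, plus strand) had 91.5 and 82.2 CPM in LN-35, against 203.5 and 189 CPM in LNCaP. Both LN-35 libraries held less than either LNCaP library by a margin far beyond the spread within a line. The transcript was 2.26-fold lower, at a log2 fold change of -1.18 with an SE of 0.08 and an edgeR adjusted p of 1.97e-12, and the log2 ratio was -1.15 within repeat 1 and -1.20 within repeat 2. Per kilobase of exon, CLDN4 stood at 0.484 and 0.491 times CLDN3 in the LN-35 libraries and at 0.922 and 0.961 times CLDN3 in the LNCaP libraries. By this length the pair was close to equal in LNCaP, while in LN-35 CLDN3 led. The CLDN4 length of 4.7 kb includes annotated exons upstream of the RefSeq start window printed below (chr7:73830746-73831045). Counted from that start alone, the length would be shorter and CLDN4 would stand higher in both lines. Which gene leads within a line therefore depends on the annotation, whereas the lower ratio in LN-35 does not.

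CLDN7 (ENSG00000181885, chr17:7259903-7263983, minus strand) encodes the claudin that partners EPCAM on the lateral membrane. It had 2401 and 2409 counts in LN-35, against 4171 and 4048 counts in LNCaP, which scaled to 197 ± 4.33 CPM in LN-35 and 277 ± 18.01 CPM in LNCaP (SD, n = 2 each). The scaled libraries of the lines did not overlap, and the transcript was 1.41-fold lower, with a log2 fold change of -0.49 with an SE of 0.07 and an edgeR adjusted p of 1.38e-06. ELP5, a subunit gene of the Elongator complex on the opposite strand, shares exonic sequence with CLDN7, and use of strand in counting is not stated, so reads of the pair cannot be told apart. ELP5 itself had 310 and 310 counts in LN-35, against 600 and 488 counts in LNCaP, and fell by 0.53 on the log2 scale.

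To show what the transcription start regions of these claudins look like, RefSeq windows of 300 bases (250 before and 50 after a start, GRCh38.p14) were searched on both strands for 4 motifs: the E-box CAGGTG to which SNAI and ZEB repressors bind, the grainyhead motif AACNGGTT, the ETS motif CCGGAAG and the GC box GGGCGGG. Windows were found for 8 of the 10 members, 14 windows in all, and not for EPCAM or F11R. The windows of CLDN1, CLDN4 and CLDN7 are printed 5′ to 3′ with matches in capitals because they set the claudin that rose beside the claudin that fell most among the 4 and the claudin with the most E-box matches. CLDN1 is shown from chr3:190322397-190322696 (minus strand), CLDN4 from chr7:73830746-73831045 (plus strand) and CLDN7 from chr17:7262429-7262728 (minus strand), the more downstream of its 2 windows.
CLDN1: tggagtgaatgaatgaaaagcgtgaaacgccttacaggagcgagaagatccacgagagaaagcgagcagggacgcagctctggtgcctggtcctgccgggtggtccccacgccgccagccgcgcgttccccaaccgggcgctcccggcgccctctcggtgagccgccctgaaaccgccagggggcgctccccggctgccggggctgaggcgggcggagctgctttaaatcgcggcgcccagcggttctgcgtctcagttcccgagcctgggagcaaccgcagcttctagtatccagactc
CLDN4: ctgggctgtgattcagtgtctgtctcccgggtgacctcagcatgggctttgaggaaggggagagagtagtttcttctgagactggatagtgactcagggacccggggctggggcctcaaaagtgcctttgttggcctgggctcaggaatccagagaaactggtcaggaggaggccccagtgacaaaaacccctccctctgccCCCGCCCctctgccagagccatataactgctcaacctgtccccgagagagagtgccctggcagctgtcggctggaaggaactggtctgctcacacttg
CLDN7: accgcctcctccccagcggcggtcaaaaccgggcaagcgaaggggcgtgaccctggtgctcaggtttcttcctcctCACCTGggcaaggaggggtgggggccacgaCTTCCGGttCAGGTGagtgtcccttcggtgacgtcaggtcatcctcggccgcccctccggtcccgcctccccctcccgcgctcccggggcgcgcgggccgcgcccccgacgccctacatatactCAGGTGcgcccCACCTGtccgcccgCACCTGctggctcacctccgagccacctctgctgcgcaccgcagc

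The CLDN7 window held 5 matches to CAGGTG or its reverse complement CACCTG and 1 to the ETS motif as CTTCCGG. In the CLDN4 window the only match was 1 GC box, read as CCCGCCC, and the CLDN1 window held none of the 4 motifs. CLDN1 and CLDN7 also differ from CLDN4 in base composition: their windows had 67.0% and 71.7% G+C with 31 and 30 CpG dinucleotides, against 59.0% and 5 CpG in the CLDN4 window and medians of 58.7% and 14 over all 35116 RefSeq windows. Over the members, 6 of 14 windows held the E-box (42.9%), beside 20.6% of all windows, and 9 of 14 held the GC box (64.3%), beside 33.1% of all windows. No member window held the grainyhead motif, which 1.73% of all windows hold, and 1 held the ETS motif, which 10.3% of all windows hold. The E-box occurred both in members that fell (CLDN3, CLDN7, OCLN and TJP1) and in 1 that rose (TJP3), and such matches describe letters only.

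OCLN had the largest fall among the members. The gene (ENSG00000197822, chr5:69492292-69558104, plus strand) encodes occludin, a MARVEL-domain protein that lies in the strands beside the claudins. It had 335 and 333 counts in the LN-35 libraries, against 2426 and 2309 counts in the LNCaP libraries, or 27.9 and 26.8 CPM against 154 and 166 CPM. All the LN-35 values lay far under the LNCaP values, at 17.1% of the LNCaP level. This was a 5.84-fold drop, with a log2 fold change of -2.55 with an SE of 0.09 (95% interval -2.73 to -2.36) and an edgeR adjusted p of 9.11e-18, and 4.74% of tested genes had a lower log2 fold change. The log2 ratio was -2.46 within repeat 1 and -2.62 within repeat 2. A partial copy of the gene, the pseudogene OCLNP1, is annotated on the same chromosome but is not among the genes counted, so a share of reads divided between them cannot be judged.

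The start region of OCLN is shown as well because its transcript changed most: the window at chr5:69492297-69492596 (plus strand) held 1 E-box and 1 GC box, and a second window that overlaps it held 2 E-boxes.
OCLN: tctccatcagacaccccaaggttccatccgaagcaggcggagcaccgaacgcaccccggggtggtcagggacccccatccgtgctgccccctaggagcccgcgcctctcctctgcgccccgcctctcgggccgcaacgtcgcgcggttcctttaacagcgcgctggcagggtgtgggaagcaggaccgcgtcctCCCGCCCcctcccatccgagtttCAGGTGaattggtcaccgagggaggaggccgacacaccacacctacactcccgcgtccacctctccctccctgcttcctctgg

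MARVELD2 (ENSG00000152939, chr5:69415065-69444330, plus strand) encodes tricellulin and starts 77.2 kb from OCLN on the same strand. It had 51.8 and 61.0 CPM in LN-35, against 73.6 and 71.5 CPM in LNCaP. The LN-35 libraries differed from each other more than the LNCaP libraries did, and the fall was 1.29-fold, a log2 fold change of -0.36 with an SE of 0.09 and an edgeR adjusted p of 0.00118. It was not called without LN-35 replicate 1 (log2 fold change -0.24, adjusted p = 0.0717), while over its alternatives the adjusted p ranged from 0.000101 to 0.0717. Per kilobase, OCLN stood at 0.427 and 0.349 times MARVELD2 in LN-35 and at 1.66 and 1.84 times MARVELD2 in LNCaP, so the order of these neighbours was opposite in the lines. MARVELD3, the remaining member of the family, averaged 5.07 ± 0.455 CPM in LN-35 and 13.5 ± 0.692 CPM in LNCaP (SD, n = 2 each) and fell by 1.42 on the log2 scale (edgeR adjusted p = 1.09e-06). Of the family's summed CPM per kilobase, OCLN made up 26.5% in LN-35 and 60.2% in LNCaP, and MARVELD2 68.4% in LN-35 and 34.5% in LNCaP.

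F11R (ENSG00000158769, chr1:160995211-161021348, minus strand) encodes JAM-A, an immunoglobulin-type adhesion molecule that gathers polarity proteins at young contacts. It had 49.3 and 52.9 CPM in LN-35, against 114 and 136 CPM in LNCaP. Each LN-35 library had less than either LNCaP library, and the transcript was 2.45-fold lower (log2 fold change -1.29 with an SE of 0.09, edgeR adjusted p = 1.60e-11). AL591806.3, a protein-coding gene on the same strand, overlaps its exons and was assigned 188 and 121 counts in LN-35, against 592 and 466 counts in LNCaP. The F11R values were not whole numbers, whereas the sums of both genes were whole, at 780 and 778 counts in LN-35 and 2393 and 2368 counts in LNCaP. Fitted as this sum, an alternative chosen after seeing the data, the log2 fold change was -1.33 with an SE of 0.08 and an edgeR adjusted p of 4.09e-13. F11R supplied 98.3% of the summed CPM per kilobase of F11R, JAM2 and JAM3 in LN-35 and 97.5% in LNCaP, and JAM3, with 6 and 6 counts in LN-35 against 55 and 44 counts in LNCaP, fell by 2.74 on the log2 scale (edgeR adjusted p = 4.15e-05).

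The scaffold genes TJP1 and TJP3 changed in opposite directions. TJP1 (ENSG00000104067, chr15:29699367-29968865, minus strand), the gene of ZO-1, had 99.2 and 113 CPM in LN-35, against 203 and 185 CPM in LNCaP. TJP3 (ENSG00000105289, chr19:3708109-3750813, plus strand), the gene of the epithelial scaffold ZO-3, had 48.6 and 40.2 CPM in LN-35, against 23.0 and 18.2 CPM in LNCaP. Neither gene's values overlapped between the lines. TJP1 fell 1.83-fold (log2 fold change -0.87 with an SE of 0.08, edgeR adjusted p = 8.28e-10) and TJP3 rose 2.15-fold (1.10 with an SE of 0.13, edgeR adjusted p = 1.07e-07). Per kilobase, TJP3 stood at 1.31 and 0.951 times TJP1 in LN-35 and at 0.303 and 0.263 times TJP1 in LNCaP. The libraries of the lines did not overlap in this ratio, and TJP1 and TJP3 were close to equal per length in LN-35 while TJP1 led in LNCaP.

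EPCAM (ENSG00000119888, chr2:47345158-47387601, plus strand) had 99.2 and 97.5 CPM in LN-35, against 126 and 156 CPM in LNCaP. The LN-35 libraries were almost equal and lay under both LNCaP libraries, which differed from each other by more. The transcript was 1.43-fold lower, with a log2 fold change of -0.52 with an SE of 0.09 and an edgeR adjusted p of 3.47e-05, and the log2 ratio was -0.34 within repeat 1 and -0.67 within repeat 2. CLDN7 and EPCAM, whose products bind each other, kept a similar proportion: CLDN7 stood per kilobase at 2.04 and 2.01 times EPCAM in LN-35 and at 2.13 and 1.88 times EPCAM in LNCaP, ranges that overlap.

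**Figure D2:**
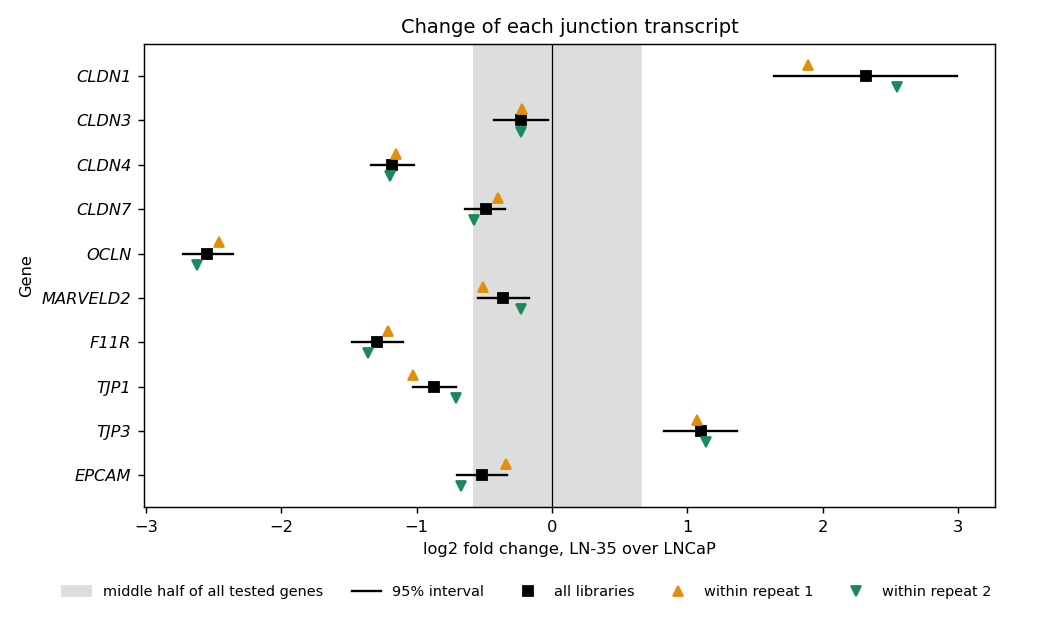
Log2 fold change of each gene, LN-35 over LNCaP (squares, with 95% intervals from edgeR), with the ratios within repeat 1 (upward triangles) and repeat 2 (downward triangles). The grey band holds the middle 50% of all tested genes, from -0.58 to 0.66: CLDN1 and TJP3 lie above it, OCLN, F11R, CLDN4 and TJP1 lie under it, and the estimates for CLDN3, CLDN7, MARVELD2 and EPCAM lie inside it.

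The order of the members by level per length differed between the lines. CLDN7 led in both, at 79.0 ± 1.74 CPM per kilobase in LN-35 and 111 ± 7.23 CPM per kilobase in LNCaP (SD, n = 2 each), followed by EPCAM at 39.1 CPM per kilobase in LN-35 and 55.9 in LNCaP, CLDN3 at 37.9 in LN-35 and 44.4 in LNCaP, and CLDN4 at 18.5 in LN-35 and 41.7 in LNCaP. In LN-35 the ranges of EPCAM and CLDN3 overlapped, as did those of CLDN3 and CLDN4 in LNCaP. Below these, the order in LN-35 was TJP3, MARVELD2, F11R, TJP1, OCLN and CLDN1, of which the first 4, at 10.5, 10.5, 10.1 and 9.42 CPM per kilobase, could not be ordered beyond the spread of their libraries. In LNCaP it was F11R, OCLN, TJP1, MARVELD2, TJP3 and CLDN1, and only F11R and OCLN, at 24.7 and 23.6 CPM per kilobase, overlapped. OCLN thus stood at 4.05 CPM per kilobase in LN-35, below every member except CLDN1, and TJP3 at 10.5 CPM per kilobase in LN-35 and 4.89 in LNCaP. These levels rest on the union of annotated exons, and 13 of the 20 shifted by more than 1 SD when the longest transcript was used as the length. A CLDN4 length counted from its RefSeq start alone would raise its level in both lines, so its place in the order is not settled.

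Among the 20 other claudin genes, 4 were expressed enough to be tested, of which 3 fell and 1 rose. All 4 were thus called, beside 71.8% of all tested genes. CLDN12, an abundant claudin that lacks the usual binding motif for ZO scaffolds, averaged 294 ± 2.04 CPM in LN-35 and 451 ± 50.8 CPM in LNCaP (SD, n = 2 each) and fell by 0.62 on the log2 scale (edgeR adjusted p = 1.69e-07). CLDN8 had no counts in LN-35 and 83 and 72 counts in LNCaP, so that it was at least 42.5-fold lower against a floor of 3 counts over the LN-35 libraries. CLDN23 fell to 2 and 7 counts in LN-35, against 114 and 118 counts in LNCaP. CLDN15, which forms sodium channels in the gut, rose to 20.9 ± 1.11 CPM in LN-35, against 7.38 ± 0.206 CPM in LNCaP. CLDN7 made up a similar share of the summed claudin level per kilobase in both lines, 41.8% in LN-35 and 40.7% in LNCaP. CLDN4 made up 9.76% in LN-35 and 15.2% in LNCaP, and CLDN1 1.07% in LN-35 and 0.146% in LNCaP. CLDN3 made up 20.9% and 19.2% in the LN-35 libraries and 16.9% and 15.5% in the LNCaP libraries. With a CLDN4 length counted from its RefSeq start alone, its share would be larger and the others smaller.

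**Figure D3:**
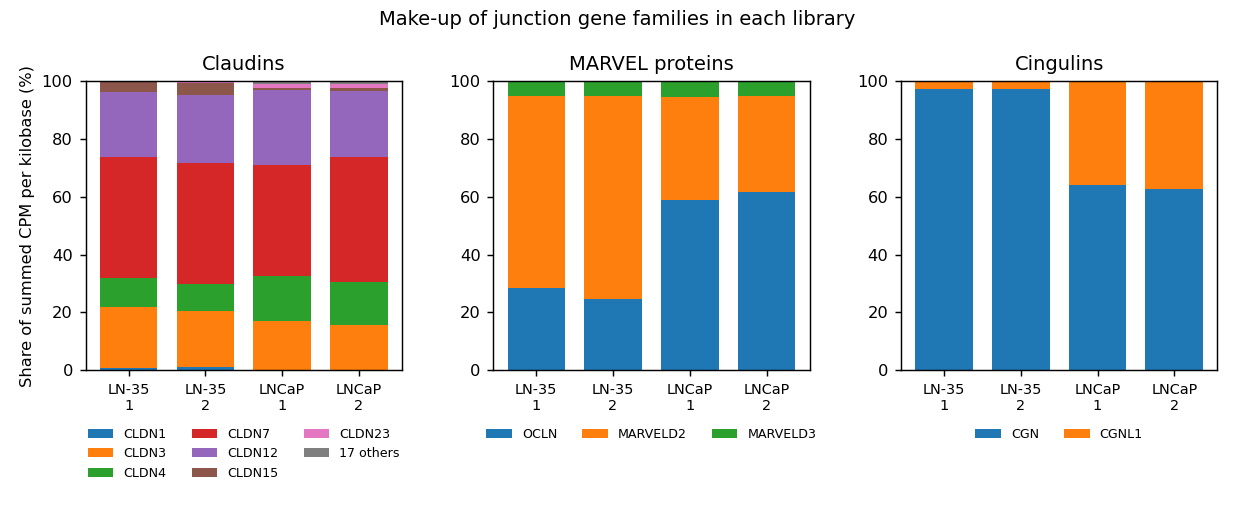
Share of each gene (%) in the summed CPM per kilobase of its family, in each LN-35 library (left bars) and each LNCaP library (right bars). OCLN makes up 26.5% of the MARVEL family in LN-35 and 60.2% in LNCaP on average, CGNL1 2.73% of the cingulins in LN-35 and 36.6% in LNCaP, and the claudin bars are led by CLDN7 in every library.

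The other membrane proteins of the junction did not share 1 direction: of 11 listed, 7 were tested, 3 rose, 2 fell and 2 were not called, with a median log2 fold change of 0.07. The called share was 71.4%, beside 71.8% of all tested genes. CXADR, a relative of JAM-A that also serves as the coxsackievirus and adenovirus receptor, rose to 118 ± 10.7 CPM in LN-35, against 43.5 ± 0.928 CPM in LNCaP (SD, n = 2 each; edgeR adjusted p = 5.38e-13). The angulins LSR and ILDR1, which recruit tricellulin to cell corners, were both higher in LN-35, LSR by 0.45 on the log2 scale. ILDR1 had 59 and 53 counts in LN-35 against 0 and 5 counts in LNCaP, and its size rests on the LNCaP libraries: the log2 fold change of ILDR1 was 4.69, but 3.64 without LNCaP replicate 1 and 8.94 without LNCaP replicate 2, where the remaining library has no counts and the fitted value is no bound. The tricellulin gene itself was lower in LN-35, as given above.

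Among the scaffolds and cytoplasmic adaptors of the junction, 17 were tested, of which 11 rose, 3 fell and 3 were not called, with a median log2 fold change of 0.34. The called share was 82.4%, beside 71.8% of all tested genes. CGN, the gene of cingulin, which binds ZO-1 and myosin, rose to 119 ± 2.71 CPM in LN-35, against 45.4 ± 3.81 CPM in LNCaP, whereas its paralogue CGNL1 fell to 4.38 ± 0.183 CPM in LN-35, against 34.3 ± 1.43 CPM in LNCaP (SD, n = 2 each; edgeR adjusted p = 6.32e-13 and 5.61e-14). CGNL1 thereby stood at 0.0276 and 0.0284 times CGN per kilobase in LN-35 and at 0.560 and 0.595 times CGN in LNCaP. AMOTL1, an angiomotin-family adaptor, rose 12.7-fold, and RAB13, a small GTPase of claudin traffic, 2.27-fold. MAGI1 fell by 0.81 on the log2 scale.

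Apical polarity genes, which position the junction, were mixed at 8 higher, 7 lower and 2 not called of 17 tested. The called share was 88.2%, beside 71.8% of all tested genes. PARD3, the scaffold that JAM-A binds, rose to 50.4 ± 2.27 CPM in LN-35, against 8.25 ± 1.61 CPM in LNCaP (SD, n = 2 each; edgeR adjusted p = 3.54e-14). The Crumbs-complex scaffolds PALS1 and PATJ fell by 0.96 and 0.83 on the log2 scale, and the atypical protein kinases PRKCI and PRKCZ fell by 0.70 and 0.77. LLGL2 and SCRIB, of the basolateral Scribble group, rose by 1.27 and 0.97.

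EPCAM's relatives and the proteases that act on it also changed. Of 13 tested genes 4 rose, 6 fell and 3 were not called, with a median log2 fold change of -0.60. The called share was 76.9%, beside 71.8% of all tested genes. The listed proteases did not share 1 direction. BACE2 rose 28.4-fold, to 92.9 CPM in LN-35 against 3.25 CPM in LNCaP, and BACE1 rose 1.76-fold, while ADAM10 fell 2.02-fold. ST14, the gene of matriptase, which cleaves EPCAM, averaged 59.9 ± 1.40 CPM in LN-35 and 90.8 ± 3.67 CPM in LNCaP (SD, n = 2 each; edgeR adjusted p = 8.36e-07), and PRSS8, the gene of its partner protease prostasin, 17.1 ± 2.38 CPM in LN-35 and 80.3 ± 6.15 CPM in LNCaP (edgeR adjusted p = 1.12e-14). Of the inhibitors of matriptase, SPINT2 fell to 170 ± 7.68 CPM in LN-35, against 426 ± 0.577 CPM in LNCaP, while SPINT1 was higher by 0.25 on the log2 scale. The tetraspanin CD9, an EPCAM neighbour in the membrane, fell 3.88-fold. TSPAN8, a tetraspanin found with EPCAM in complexes, had 219 and 233 counts in LN-35 against 0 and 5 counts in LNCaP.

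Adherens junctions and desmosomes hold the same lateral membranes together. Among 12 adherens junction genes 6 rose, 3 fell and 3 were not called. CDH1, the gene of E-cadherin, averaged 877 ± 30.7 CPM in LN-35 and 1453 ± 4.71 CPM in LNCaP (SD, n = 2 each; log2 fold change -0.73, edgeR adjusted p = 2.35e-09). CDH3, the gene of P-cadherin, rose 20.6-fold, and CDH2, the gene of N-cadherin, had 74 and 53 counts in LN-35 and none in LNCaP, at least 51.6-fold higher against a floor of 3 counts over the LNCaP libraries. Of 9 tested desmosome genes 6 fell and 3 rose, so all were called, beside 71.8% of all tested genes. DSP fell by 1.16, JUP by 1.11 and DSC2 by 1.17 on the log2 scale, whereas the plakophilin genes PKP2 and PKP3 rose by 1.11 and 0.60.

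**Figure D4:**
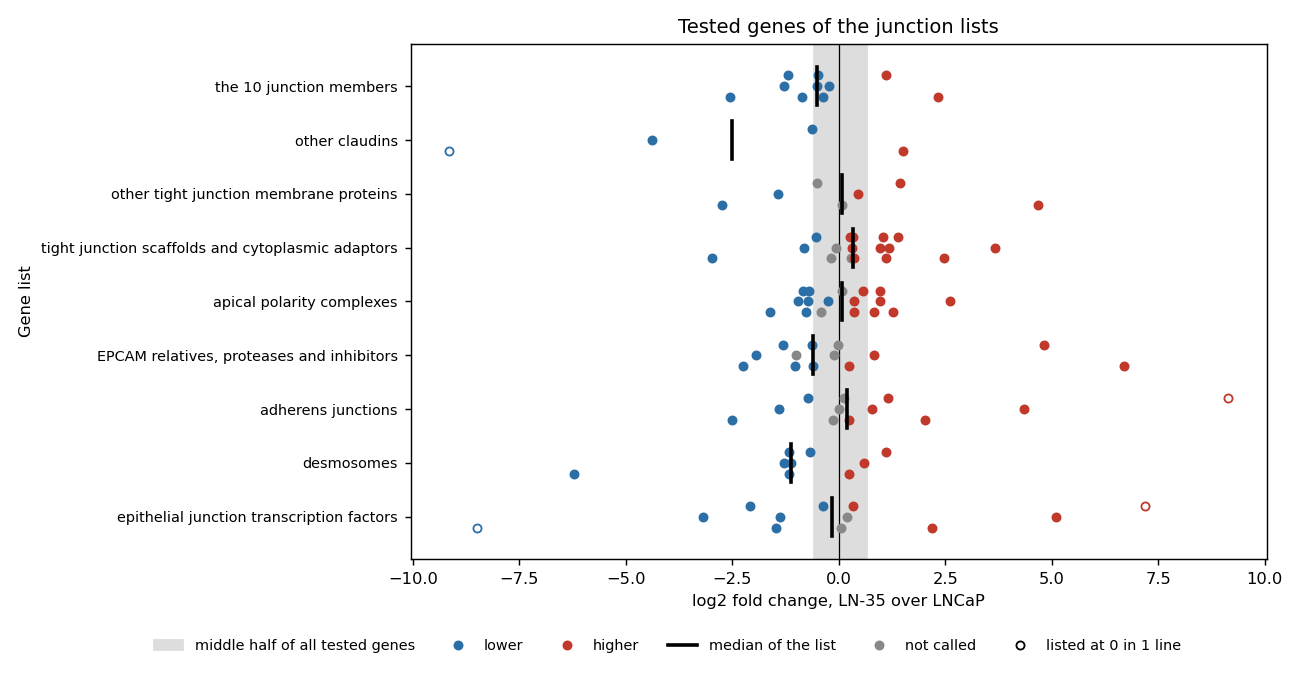
Log2 fold change, LN-35 over LNCaP, of the tested genes in each list (blue, lower; red, higher; grey, not called; open symbols, no counts in 1 of the lines, whose fitted fold depends on the prior count), with a bar at each list's median. The 10 members have a median of -0.50 and the desmosome genes of -1.11, against 0.34 for the scaffolds and cytoplasmic adaptors.

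Transcription factors known to act on epithelial junction genes were 4 higher, 6 lower and 2 not called of 12 tested. The called share was 83.3%, beside 71.8% of all tested genes. EHF, an epithelial ETS factor, fell to 159 ± 2.96 CPM in LN-35, against 677 ± 11.3 CPM in LNCaP (SD, n = 2 each; edgeR adjusted p = 7.86e-18), and GRHL2, a grainyhead factor that in mouse activates claudin genes, fell by 0.38 on the log2 scale. KLF5 rose to 67.8 ± 0.897 CPM in LN-35, against 1.94 ± 0.405 CPM in LNCaP (edgeR adjusted p = 9.02e-19). The E-box repressors did not move together. SNAI2 had no counts in LN-35 and 51 and 47 counts in LNCaP, at least 26.9-fold lower, while ZEB2 had 10 and 23 counts in LN-35 and none in LNCaP, at least 13.3-fold higher, both against a floor of 3 counts over a line's libraries. SNAI1 had 13 and 4 counts in LN-35 against 33 and 25 counts in LNCaP, and ZEB1 had 1 and 0 counts in LN-35 against 3 and 3 counts in LNCaP. TWIST1, another factor of the list, had 144 and 118 counts in LN-35 against 36 and 33 counts in LNCaP, 4.61-fold higher (edgeR adjusted p = 5.59e-08).

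Genes that flank the members were examined up to 100 kb from a member's annotated gene start. Of 40 such tested genes that are not members, 10 were higher, 19 lower and 11 not called. Over all tested genes 71.8% were called, 36.4% as higher and 35.5% as lower. STX1A, a syntaxin gene of the synaptic vesicle machinery that lies 50.6 kb from CLDN3, had 1154 and 1190 counts in LN-35 against 86 and 85 counts in LNCaP, a log2 fold change of 4.06, opposite in sign to both claudins beside it. GTF2H2C, which encodes a TFIIH subunit, lies 67.9 kb from OCLN, belongs to a family of near-identical copies that makes its counts uncertain, and fell by 1.81 on the log2 scale. NECTIN4, an adhesion gene 68.3 kb from F11R, had 45 and 43 counts in LN-35 against 316 and 295 counts in LNCaP. MATK, a tyrosine kinase gene 94.0 kb from TJP3, had 398 and 383 counts in LN-35 against 0 and 2 counts in LNCaP. No gene was tested in this span around CLDN1 or TJP1.

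Genes whose levels ran most like those of EPCAM, CLDN4 and CLDN7 were sought by the Euclidean distance of centred log2 CPM over the 4 libraries. For EPCAM these were ARFRP1, CMKLR2 and DBI, at distances of 0.02, 0.0237 and 0.0327. For CLDN4 they were BPHL, SDF2L1 and NUDT19, at 0.022, 0.0275 and 0.0433, and for CLDN7 ZWINT, ACAA1 and MXD4, at 0.00695, 0.0224 and 0.023. The genes nearest EPCAM had log2 fold changes of -0.53, -0.51 and -0.53, beside -0.52 for EPCAM, and with 4 libraries in 2 lines such likeness rests on few points.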

How the data were processed

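The authors deposited 1 table of estimated counts per gene, not scaled between libraries. Per the submitters' processing notes, HISAT2 2.0.5, featureCounts 1.5.0-p3 and hg38 were used. In each library 11.5% to 12.0% of values were not whole. featureCounts gives whole counts by default, and neither the step that made fractions nor the use of strand is stated. Estimated counts were rounded, genes were filtered by filterByExpr (minimum count 10), libraries were scaled by TMM factors, and LN-35 was compared with LNCaP by edgeR's two-sided quasi-likelihood test (robust, design ~ group, all 4 libraries) with Benjamini-Hochberg adjustment over 13744 genes. The biological coefficient of variation was 6.67%. Groups came from the labels. Libraries of a line differed beyond sampling noise (chi-square per degree of freedom 3.26 in LN-35 and 6.36 in LNCaP). Each was entered as a replicate, although such spread could be purely technical and does not show separate cultures. Without molecular identifiers, floors and precision cover counting error only. A floor of 3 counts over a line was 0.123 CPM in LN-35 and 0.101 CPM in LNCaP.

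The members and all gene lists were chosen with earlier results of these data known. Named genes were the members, up to 4 called genes per direction and list with the smallest adjusted p, 3 nearest genes for EPCAM, CLDN4 and CLDN7, and tested genes within 100 kb of a called member. Genes named outside this rule were singled out after their values were seen: ST14, SNAI1 and ZEB1, and the marker genes beside their lists. Gene positions follow GENCODE release 29 (GRCh38, the assembly of hg38), and promoter windows from RefSeq on GRCh38.p14. CPM per kilobase divides by the union of exons. Some items are not reported here. Code was tested on simulated data. Alternatives were DESeq2 size factors, library totals alone, DESeq2's Wald test, no filter, a replicate block, unrounded counts and leaving out each library. Fits used edgeR 4.0.16 and DESeq2 1.42.0 in R 4.3.3, and tables and plots used pandas 2.3.3 and matplotlib 3.10.9 in Python 3.11.15.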

Additional observations from a re-analysis of the deposited data

How the results depend on the processing

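The 10 alternatives left the direction of every member unchanged, and 8 of the 10 members kept their call in each of them. CLDN3 was not called with DESeq2 size factors in edgeR (log2 fold change -0.21, adjusted p = 0.0551) or with DESeq2's Wald test (-0.21, adjusted p = 0.174), with 0.0077 to 0.336 over all alternatives, and leaving out 1 library at a time gave values from -0.31 to -0.14. MARVELD2 ranged from -0.48 to -0.24 with 1 library left out and lost its call without LN-35 replicate 1. The cause was not tested. Members called numbered 9 to 10 with 1 library left out, with 2 higher in each case and 7 to 8 lower.

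The labels number each line's libraries as repeats 1 and 2 under a batch tag, which may pair them. The deviations of same-numbered libraries had a correlation of 0.00839 across tested genes, so next to no shared deviation was seen. With the replicate block 10 members were called, and 9617 of all tested genes against 9873 without it.

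Over 108 named genes that are not members, 1046 of 1079 alternative values kept direction and call, 33 lost the call and 0 reversed. CLDN1, with 18 to 103 counts per library, is the member whose size depth limits most.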
